A study of Mus musculus with 6 samples.

Results

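The E proteins and their Id inhibitors were followed as 6 genes across proB cells of 3 Ikaros genotypes: Tcf3, Tcf12 and Tcf4, which encode E proteins, and Id3, Id2 and Id1, which encode inhibitors. They were chosen by symbol, with the transcript of the highest mean value standing for each gene, and make up 6 of the 22098 symbols measured. All 6 had a mean of at least 1 RPKM (reads scaled for transcript length and library size), as did 10943 symbols in all. Id1 passed that filter only through 1 library.

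The cells were proB cells sorted from bone marrow of C57BL/6 mice aged 6 to 7 weeks, and total RNA was sequenced from 6 libraries. The genotypes were Ikaros_ZnF4-/- and Ikaros_ZnF1-/- (called ZnF4 and ZnF1 here), in which the fourth or the first zinc finger of the DNA-binding domain of Ikaros is mutated, and wild type (wt). Each genotype gave 1 library of Hardy fractions C and C' pooled (called fraction C) and 1 of the earlier fraction B. The labels name no treatment and do not say how many animals entered a library, so there is no replicate of any genotype in any fraction.

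E proteins are basic helix-loop-helix transcription factors that bind the E box, a short DNA motif, as dimers, and they are needed for commitment to the B lineage. Id proteins have the helix-loop-helix dimerization domain but lack the basic DNA-binding region, so a dimer of an Id with an E protein does not bind DNA. The balance of the 2 families is known to set E protein activity in lymphocyte precursors.

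All 10 B lineage markers stood above 1 RPKM in every library. Ikzf1, the gene of Ikaros, had 425.1, 154.1 and 169.4 RPKM in the ZnF4, ZnF1 and wt libraries of fraction C and 431.6, 181.5 and 150.3 RPKM in those of fraction B, which as values per transcript do not check the deletion of a finger. The library of ZnF1 fraction C stood apart: its 10 neutrophil and monocyte markers summed to 41203.7 RPKM, against 982.8 to 3637.5 in the other 5 libraries, and its 7 erythroid markers to 3587.2, against 80.3 to 247.7. Its B lineage markers summed to 2352.0 RPKM, against 3126.1 to 5953.7. Xist, which overlaps its antisense partner Tsix, was listed at 0 in the 4 mutant libraries, against 91.9 and 81.3 RPKM in the wt libraries, and the Y-linked Eif2s3y had 34.4 to 55.1 RPKM in the mutant libraries and 0 in wt, so sex and genotype cannot be told apart in any comparison with wt. In bulk RNA of sorted cells, fewer cells of a type and less RNA per cell cannot be told apart either.

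Ordered by mean RPKM over the 6 libraries, Tcf3 led with 239, followed by Tcf12 with 54.2, Id3 with 50.2, Tcf4 with 29.8, Id2 with 8.83 and Id1 with 1.12. Tcf3 ranked 88 among all symbols and lay above every other member in each library. The ranges of all later neighbours in this order overlapped across libraries, although Id2 lay above Id1 within each library.

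**Figure D1:**
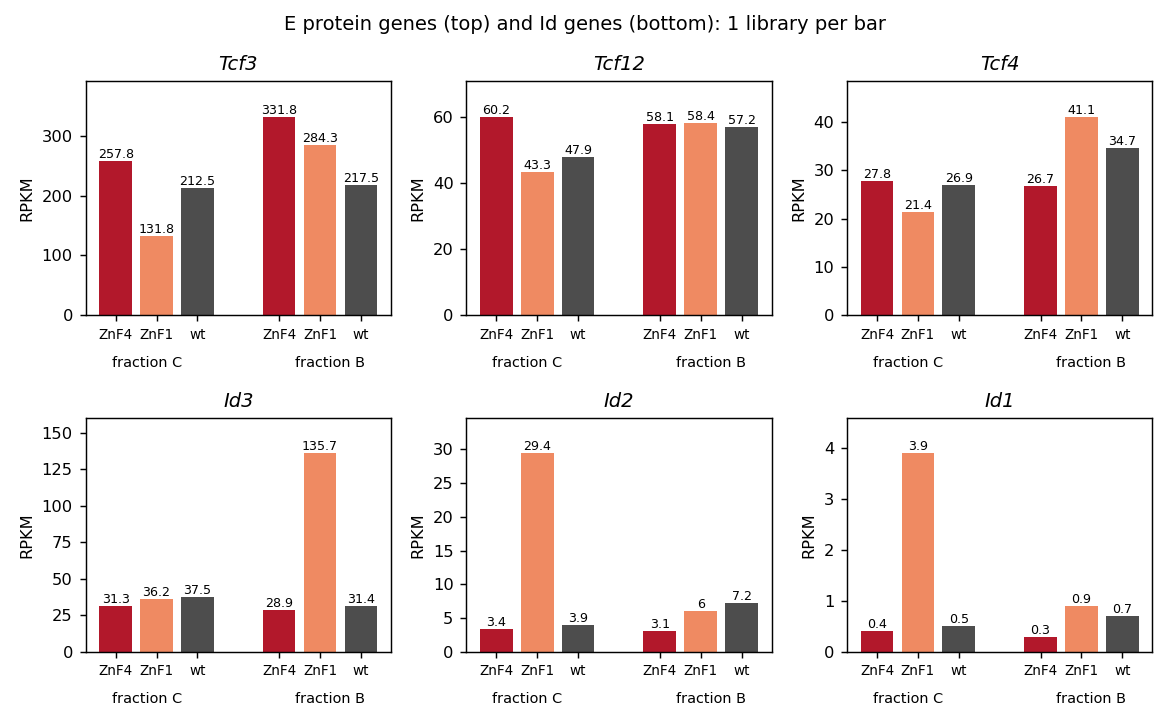
RPKM of the 3 E protein genes (top) and the 3 Id genes (bottom) in each of the 6 libraries, 1 bar per library, with fraction C on the left and fraction B on the right of each panel. Id3 stands at 135.7 RPKM in ZnF1 fraction B, and Id2 and Id1 stand at 29.4 and 3.9 RPKM in ZnF1 fraction C, each above the other 5 libraries.

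Tcf3 encodes the E proteins E12 and E47, which differ by an alternative exon and whose loss blocks the earliest steps of B cell development. In fraction C, Tcf3 had 257.8 RPKM in ZnF4, 131.8 in ZnF1 and 212.5 in wt cells. In fraction B it had 331.8 RPKM in ZnF4, 284.3 in ZnF1 and 217.5 in wt cells. ZnF4 was thus the highest library in both fractions and ZnF1 the lowest in fraction C only, while wt cells hardly differed between fractions. Against wt, the difference in log2(RPKM + 1) was 0.28 in fraction C and 0.61 in fraction B for ZnF4, and both turned negative (-0.32 and -0.06) when libraries were rescaled to equal B lineage markers. For ZnF1 it was -0.68 in fraction C and 0.38 in fraction B, and after the same rescaling -0.04 and -0.10. The B lineage marker sum was 5609.6 RPKM in ZnF4, 2352.0 in ZnF1 and 3126.1 in wt cells of fraction C and 5953.7, 5348.3 and 3642.3 RPKM in the same genotypes of fraction B. The highest and the lowest Tcf3 library were also the highest and the lowest in that sum, whose part in the Tcf3 values was not tested.

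The files list 5 Tcf3 transcripts of 3324 to 3339 bases, and the 1 used here (NM_001164147) held 80.4% to 84.3% of their summed RPKM per library. These transcripts are nearly identical and received very unequal values, so the values per transcript are not read as levels of E12 or E47.

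Tcf12 encodes the E protein HEB, best known from T cell development. It had 60.2 RPKM in ZnF4, 43.3 in ZnF1 and 47.9 in wt cells of fraction C, and 58.1, 58.4 and 57.2 RPKM in ZnF4, ZnF1 and wt cells of fraction B. It was the steadiest member, with its highest library 1.39 times its lowest, and the 3 libraries of fraction B differed by less than those of fraction C.

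Tcf4 encodes E2-2, the E protein that plasmacytoid dendritic cells depend on. It had 27.8 RPKM in ZnF4, 21.4 in ZnF1 and 26.9 in wt cells of fraction C, and 26.7 RPKM in ZnF4, 41.1 in ZnF1 and 34.7 in wt cells of fraction B. Its level in ZnF4 fraction B was the lowest of that fraction, with a log2 difference from wt of -0.37, and plasmacytoid dendritic markers summed to 62.8 RPKM there, of which Tlr9 gave 45.0, against 161.7 in ZnF1 and 141.6 in wt cells. In fraction C the same markers summed to 42.9 RPKM in ZnF4, 178.8 in ZnF1 and 74.9 in wt cells, so there the library with the highest sum had the lowest Tcf4. Of the 9 markers in that list, 2 were listed at 0 in ZnF4 fraction B and none in ZnF1 or wt, and their part in the Tcf4 level was not tested.

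Id3 encodes the Id protein known as a target of antigen receptor signalling in lymphocytes. It had 31.3 RPKM in ZnF4, 36.2 in ZnF1 and 37.5 in wt cells of fraction C. In fraction B it had 28.9 RPKM in ZnF4, 135.7 in ZnF1 and 31.4 in wt cells. A single library, ZnF1 fraction B, lay far above the other 5, which spanned 28.9 to 37.5 RPKM. Its difference from wt in log2(RPKM + 1) was 2.08, a 4.22-fold higher level, at percentile 99.8 of all genes kept, and it was 1.60 after rescaling on B lineage markers. The same difference in fraction C was -0.05, or 0.59 after that rescaling. In ZnF1 fraction B the marker sums were 1563.8 RPKM for neutrophils and monocytes, against 3637.5 in wt, and 154.6 for erythroid cells, against 247.7. They were 50.3 for NK cells, against 85.4, and 36.6 for T cells, against 56.1, so each of these sums was below wt. Past the filter, 1 of 10, 1 of 7, 1 of 8 and 2 of 6 markers in these lists stood above wt, the last being Cd4 and Cd8a. The sums of B lineage markers (5348.3 RPKM against 3642.3 in wt) and plasmacytoid dendritic markers (161.7 against 141.6) were above wt. Of 8 plasmacytoid dendritic markers past the filter, only 2 stood above wt, and their median log2 difference was -0.42. Bst2 alone gave 106.4 RPKM of that sum, against 70.3 in wt. The part of these cell types in the Id3 level was not tested.

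Id2 encodes the Id protein needed for NK and other innate lymphoid cells. It had 3.4 RPKM in ZnF4, 29.4 in ZnF1 and 3.9 in wt cells of fraction C, and 3.1, 6.0 and 7.2 RPKM in ZnF4, ZnF1 and wt cells of fraction B. The high library was ZnF1 fraction C, 6.2-fold above wt on the log2(RPKM + 1) scale (difference 2.63, percentile 96.6 of all genes kept). In ZnF4 fraction B it was 2-fold lower than in wt, at the threshold itself. NK markers summed to 9.3 RPKM in ZnF4, 107.9 in ZnF1 and 44.7 in wt cells of fraction C and to 2.5, 50.3 and 85.4 RPKM in the same genotypes of fraction B. In ZnF4 fraction B, 8 of the 10 NK markers were listed at 0, and none was in the ZnF1 and wt libraries. The part of NK, neutrophil or erythroid cells in the Id2 values was not tested.

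Id1 encodes a known target of bone morphogenetic protein signalling and was nearly silent. It had 0.4 RPKM in ZnF4, 3.9 in ZnF1 and 0.5 in wt cells of fraction C, and 0.3 RPKM in ZnF4, 0.9 in ZnF1 and 0.7 in wt cells of fraction B. Its high library was again ZnF1 fraction C, 3.27-fold above wt (difference 1.71), beside the neutrophil and erythroid marker sums given above.

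**Figure D2:**
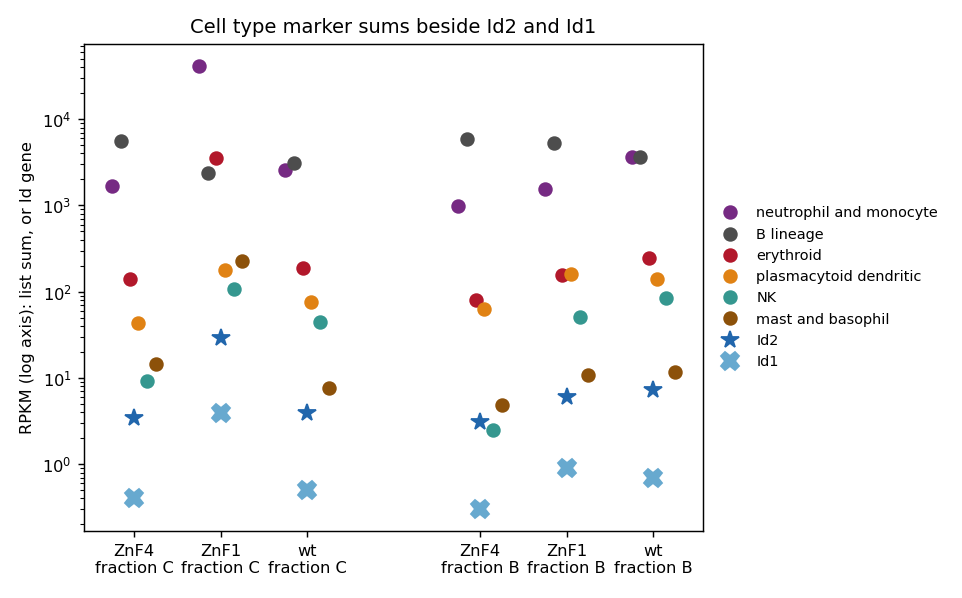
Summed RPKM of marker lists (circles) and RPKM of Id2 (stars) and Id1 (crosses) per library, on a log axis, with points set apart sideways for legibility. In ZnF1 fraction C, Id2 (29.4 RPKM) and Id1 (3.9 RPKM) are at their highest beside neutrophil and monocyte markers at 41203.7 RPKM and mast cell and basophil markers at 229.4 RPKM.

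The first 250 bases before the annotated start of Tcf3, Id3 and Id2 are shown as the DNA in which E boxes and the Ikaros core motif were looked for. Apart from Id1, these members had the widest log2 ranges over the libraries. Capitals mark an E box, and sequences and positions come from RefSeq on GRCm38.p6, a later build than the mm9 named for these data.
Tcf3 (chr10:80433636-80433885, minus strand): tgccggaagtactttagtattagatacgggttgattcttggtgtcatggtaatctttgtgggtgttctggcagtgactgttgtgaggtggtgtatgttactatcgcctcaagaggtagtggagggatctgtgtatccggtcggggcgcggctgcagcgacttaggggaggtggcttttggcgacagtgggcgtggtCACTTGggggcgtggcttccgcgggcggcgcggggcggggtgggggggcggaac
Id3 (chr4:136143572-136143821, plus strand): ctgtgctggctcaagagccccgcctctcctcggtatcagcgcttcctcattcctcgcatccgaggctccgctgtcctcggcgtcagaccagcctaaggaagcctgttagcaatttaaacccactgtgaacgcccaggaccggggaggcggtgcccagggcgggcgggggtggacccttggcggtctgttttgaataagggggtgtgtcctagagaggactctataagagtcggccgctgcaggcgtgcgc
Id2 (chr12:25096093-25096342, minus strand): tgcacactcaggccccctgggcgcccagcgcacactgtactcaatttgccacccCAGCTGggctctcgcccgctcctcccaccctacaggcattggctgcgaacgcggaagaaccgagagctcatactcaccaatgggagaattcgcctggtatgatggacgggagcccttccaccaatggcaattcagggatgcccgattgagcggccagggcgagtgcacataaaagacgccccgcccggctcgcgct
The Tcf3 window held 1 E box (CANNTG, both strands) at -54 and the Id2 window 1 at -196, and the Id3 window held 0. Over windows of 32851 promoters, 66.2% held an E box. None of the 3 windows held the Ikaros core GGGAA or its complement TTCCC, which 56.2% of all windows held.

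For ZnF4 against wt, 0 of 6 members in fraction C and 1 of 6 in fraction B (Id2) were at least 2-fold apart, beside 9.67% and 13.5% of all genes kept. The 3 E proteins had a median log2 difference of 0.28 in fraction C and 0.02 in fraction B and the 3 Id genes of -0.16 and -0.39, beside -0.047 and -0.089 over all genes. For ZnF1 against the same wt libraries, 2 of 6 members in fraction C (Id2 and Id1) and 1 of 6 in fraction B (Id3) were at least 2-fold apart, beside 20.0% and 4.28% of all genes. ZnF4 against ZnF1 gave 2 of 6 in fraction C (Id2 at -2.79 and Id1 at -1.81), beside 21.6% of all genes. In fraction B it gave 1 of 6 (Id3 at -2.19), beside 15.9%. Id1 passed the filter only through ZnF1 fraction C, so it adds no support to the fraction C counts with ZnF1.

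No member was at least 2-fold apart in both fractions in 1 direction in either mutant. Among all genes kept, 2.59% were so higher and 4.73% lower in ZnF4, and 0.758% higher and 0.804% lower in ZnF1.

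A limma model that fitted genotype plus fraction to the 6 libraries called 0 of 6 members for ZnF4 against wt and 0 for ZnF1 against wt, where it called 0.0274% of all genes in each. It called 0 of 6 for ZnF4 against ZnF1, where it called 1.82% of genes, and at an unadjusted p under 0.05 it also passed 0 of 6 in each contrast, beside 17.6% of genes for ZnF4 against wt, 9.30% for ZnF1 against wt and 22.7% for ZnF4 against ZnF1. For ZnF1 against wt the limma log2 changes were 1.01 ± 0.58 (SE) for Id3, 1.20 ± 0.72 for Id2 and 0.93 ± 0.48 for Id1, with adjusted p of 0.558, 0.564 and 0.543. For ZnF4 against ZnF1 they were -1.20 ± 0.58 for Id3, -1.78 ± 0.72 for Id2 and -1.18 ± 0.48 for Id1, with adjusted p of 0.296, 0.24 and 0.243. The largest E protein change was that of Tcf3, 0.59 ± 0.33 for ZnF4 against ZnF1 (limma adjusted p = 0.346), which became -0.12 after rescaling on B lineage markers. Adjusted p for ZnF4 against wt lay between 0.527 and 0.882.

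Each Id difference of ZnF1 rested on 1 library. Without ZnF1 fraction C, Id3 was called in limma for ZnF1 against wt (2.04, adjusted p = 0.0335), where 0.146% of all genes were called, and Id2 stood at -0.02. Without ZnF1 fraction B, Id2 (2.42, adjusted p = 0.00966) was called by limma, where 37.6% of all genes were called, and Id3 stood at -0.02. For ZnF4 against ZnF1, leaving out ZnF1 fraction C called Id3 (-2.23, limma adjusted p = 0.00576) among 24.6% of genes, and leaving out ZnF1 fraction B called Id2 (-3.00) and Tcf3 (1.04) among 37.5%. Id1 stood at 1.64 against wt and -1.88 for ZnF4 against ZnF1 without ZnF1 fraction B, but it passed the filter only through the ZnF1 library left in those fits, so no call is read for it. In these fits the lone ZnF1 library is assumed to vary like the other genotypes.

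**Figure D3:**
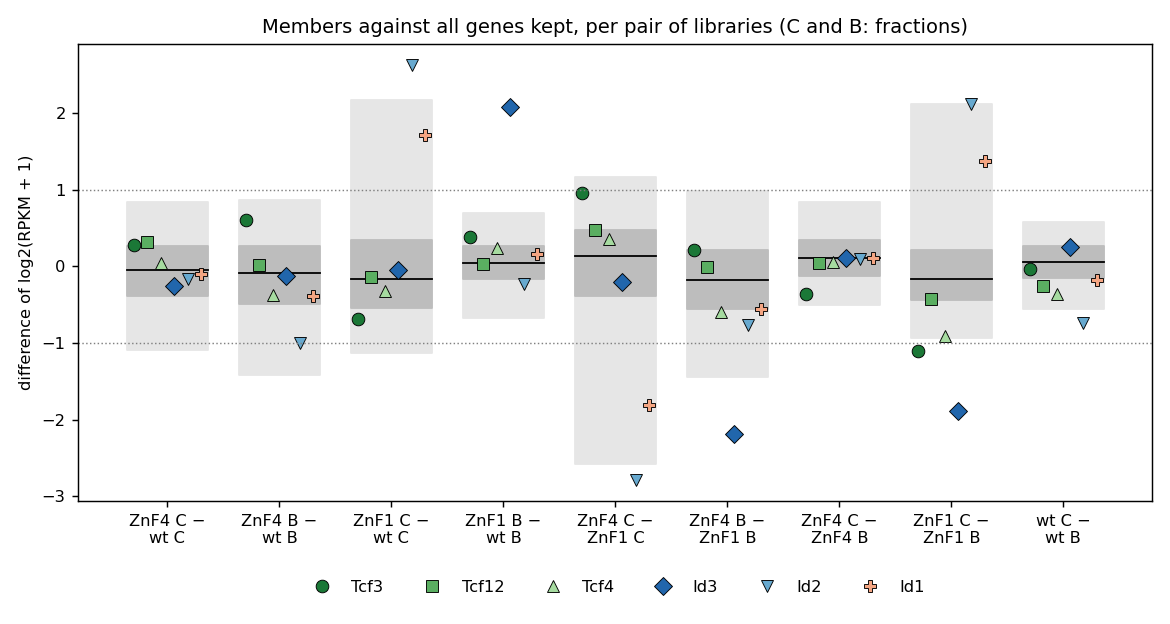
Difference in log2(RPKM + 1) of each member for 9 pairs of libraries, with light bars from the 5th to the 95th percentile and dark bars from the 25th to the 75th percentile of all genes kept, a line at their median, and dotted lines at 2-fold. Id3 lies outside the light bar for ZnF1 against wt in fraction B (2.08), and Id2 lies above it for ZnF1 against wt in fraction C (2.63).

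Between fractions, C against B, 0 of 6 members were at least 2-fold apart in ZnF4 beside 3.34% of all genes, and 0 of 6 in wt beside 1.35%. In wt cells the largest step was Id2 at -0.74 on the log2(RPKM + 1) scale, and in ZnF4 cells Tcf3 at -0.36. In ZnF1 cells 4 of 6 members were at least 2-fold apart beside 14.2% of genes: Tcf3 (-1.10), Id3 (-1.88), Id2 (2.12) and Id1 (1.37). Rescaled on B lineage markers, Tcf3 stood at 0.03 and Id3 at -0.76 there, which left Id2 (3.19) and Id1 (2.20) past 2-fold. Id1 passed the filter only through ZnF1 fraction C, so it adds no support to these ZnF1 counts. In limma the contrast of C against B called 0 of 6 members and 0% of genes, with adjusted p of the members between 0.854 and 0.876 and with 4.67% of genes (511) at an unadjusted p under 0.05.

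The ratio of summed Id RPKM to summed E protein RPKM was 0.102 in ZnF4, 0.354 in ZnF1 and 0.146 in wt cells of fraction C, and 0.0775 in ZnF4, 0.372 in ZnF1 and 0.127 in wt cells of fraction B. The order ZnF1, wt, ZnF4 was the same in both fractions. Scaling a library cannot change a ratio within it, but a mixture of cell types can. ZnF1 fraction C was the library with neutrophil and monocyte markers at 41203.7 RPKM and erythroid markers at 3587.2 RPKM. Their part in its ratio was not tested, so that ratio is not read as one of proB cells alone. Relative to wt, the ratio was 0.696-fold in fraction C and 0.61-fold in fraction B for ZnF4, and 2.43-fold and 2.93-fold for ZnF1. For ZnF1 these sizes depended on the form of the ratio: from geometric means of RPKM + 1 they were 3.51-fold in fraction C and 1.37-fold in fraction B, and without Id2 they were 1.54-fold (0.204 against 0.132 in wt) and 3.43-fold. After genotype and fraction were fitted, the residual SD of the log2 ratio of sums was 0.163 with 2 degrees of freedom. It was not computed for the other forms, whose ZnF1 folds differed more between fractions. The ratio is a score over chosen genes and is given without a p.

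Different genes made up the ratio in the 2 ZnF1 libraries. In fraction C, Id3 held 52.1% and Id2 42.3% of the Id sum in ZnF1 cells, against 89.5% and 9.31% in wt cells. There the Id sum was 69.5 RPKM in ZnF1 and 41.9 in wt cells, while the E protein sum was 196.5 RPKM in ZnF1 and 287.3 in wt cells. In fraction B, Id3 held 95.2% of the Id sum in ZnF1 and 79.9% in wt cells, and the E protein sum was 383.8 RPKM in ZnF1 and 309.4 in wt cells. For ZnF4 both sums contributed: the Id sum was 35.1 RPKM against 41.9 in wt cells of fraction C and 32.3 against 39.3 in fraction B, and the E protein sum was 345.8 RPKM against 287.3 in wt cells of fraction C and 416.6 against 309.4 in fraction B.

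**Figure D4:**
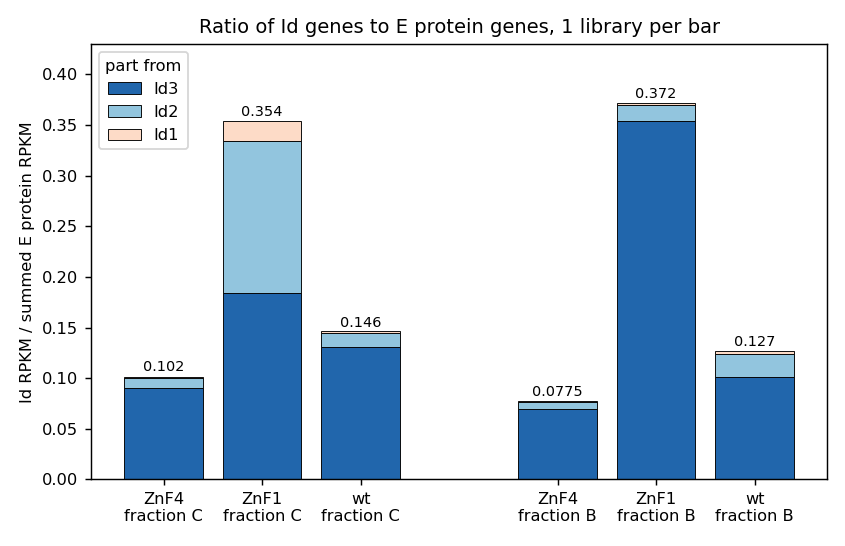
Ratio of summed Id RPKM to summed E protein RPKM in each library, 1 bar per library, split by the Id gene that contributes. Both ZnF1 libraries stand highest, at 0.354 in fraction C and 0.372 in fraction B, with a large Id2 part in fraction C only.

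Of 25 genes listed as E protein targets of early B cells, all had a mean of at least 1 RPKM. In ZnF4 against wt, 3 were at least 2-fold higher in both fractions, beside 2.59% of all genes. They were Il7r, the interleukin 7 receptor chain (log2 1.57 in C and 1.51 in B), Bach2 (1.30 and 1.50) and Cd79b (1.31 and 1.04). In the same comparison 3 were at least 2-fold lower in both fractions, beside 4.73% of all genes. These were Dntt, which encodes terminal transferase (-3.66 in C and -4.85 in B), Lef1 (-1.34 and -1.66) and Cdkn1a (-1.12 and -2.02). The list was thus split, with a median of 0.25 in C and 0.24 in B beside -0.047 and -0.089 over all genes. Limma called 0 of 25, beside 0.0274% of all genes.

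In ZnF1, 0 of 25 targets were 2-fold apart from wt in both fractions in either direction, beside 0.758% of all genes higher and 0.804% lower. Limma called 0 of 25, beside 0.0274% of all genes. Their median log2 difference was -0.47 in fraction C and 0.36 in fraction B, beside -0.159 and 0.042 over all genes. In ZnF1 fraction B, where Id3 was highest, Ebf1 had 164.8 RPKM against 178.8 in wt cells, Pax5 243.6 against 235.4 and Foxo1 70.0 against 57.8, which are B lineage transcription factors. The recombinase genes Rag1 (344.1 RPKM against 225.5 in wt) and Rag2 (70.0 against 44.5) and the surrogate light chain genes Igll1 (1022.9 against 639.9) and Vpreb1 (239.4 against 143.5) stood higher in ZnF1 fraction B, as did Cd79a (581.4 against 301.2), each under 2-fold. Counted per fraction, 1 target was at least 2-fold higher in ZnF1 fraction B, the surrogate light chain gene Vpreb2 (69.7 RPKM against 28.7 in wt), and 0 were lower, beside 2.07% and 2.21% of all genes. In ZnF1 fraction C, 1 was higher (Socs3) and 4 were lower (Cd22, Pax5, Bach2 and Ebf1), beside 12.6% and 7.39% of all genes. Cd22, Pax5 and Ebf1 are also among the B lineage markers, whose sum there was 2352.0 RPKM against 3126.1 in wt. That library also had the high neutrophil and erythroid marker sums given above, whose part in these 4 values was not tested. Vpreb2, Socs3 and Cd22 are named after their values were seen. After rescaling on B lineage markers the counts in both fractions were 0 higher and 7 lower for ZnF4, and 0 higher and 1 lower for ZnF1. Targets including Cd79b, Cd22, Pax5 and Ebf1 are themselves among the markers that set this rescaling. It also moved the median of all genes for ZnF4 against wt to -0.560 in C and -0.665 in B. These rescaled counts are therefore no independent result about the targets.

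**Figure D5:**
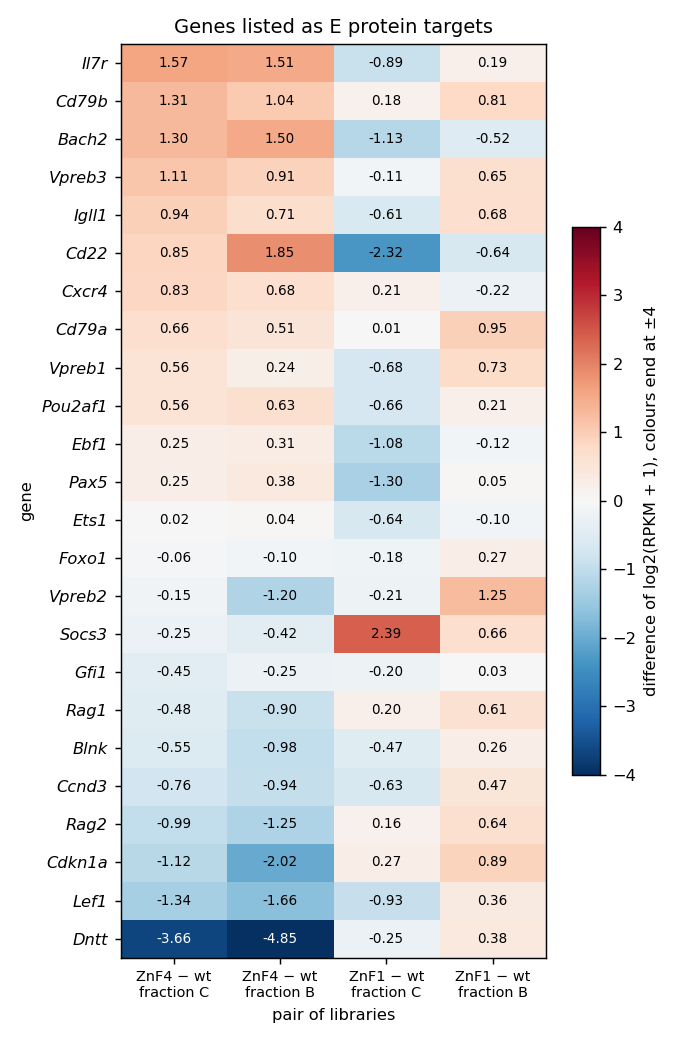
Difference in log2(RPKM + 1) from wt for listed E protein targets in ZnF4 and ZnF1, fractions C and B, in colour and in figures. Dntt is lowest in ZnF4 (-3.66 and -4.85), and Cd22 and Pax5 are the lowest in ZnF1 fraction C (-2.32 and -1.30).

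Of 22 other bHLH and HLH genes, 7 had a mean of at least 1 RPKM, and 1 of them, Heyl, was at least 2-fold lower in both fractions of ZnF4 (-3.30 in C and -3.61 in B). Tal1, the stem cell and erythroid bHLH factor, had 0.9 RPKM in ZnF4, 31.9 in ZnF1 and 1.8 in wt cells of fraction C, the same library in which Id1 and Id2 were highest. Lyl1 had 79.9 RPKM in ZnF4, 88.1 in ZnF1 and 72.8 in wt cells of fraction C, and 74.5, 117.9 and 67.7 RPKM in ZnF4, ZnF1 and wt cells of fraction B. Among 16 of 17 E protein cofactors past the filter, Lmo4 was higher (1.59 and 1.68) and Kat2a lower (-1.10 and -1.03) in both fractions of ZnF4. Among 16 of 21 genes of pathways known to induce Id genes, Smad1 (-1.16 and -1.44) and Smad3 (-1.08 and -1.41), signal transducers of the transforming growth factor family, were lower in ZnF4. Among all genes kept, 2.59% were at least 2-fold higher and 4.73% lower in both fractions of ZnF4. In ZnF1, 0 of the 7 bHLH genes, 16 cofactors and 16 inducers were 2-fold apart in 1 direction in both fractions. The shares of all genes there were 0.758% higher and 0.804% lower. Limma called 0 genes of these 3 lists in either mutant, beside 0.0274% of all genes in each. Egr1, an immediate early gene known to induce Id3, had 70.0 RPKM in ZnF1 fraction C against 5.3 in wt cells. In fraction B it had 3.6 RPKM in ZnF1 against 5.5 in wt cells. The part of Egr1 in the Id3 level was not tested.

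Of 3289 genes searched, those most like Id3 over the 6 libraries in log2(RPKM + 1) were Gga2 (Pearson r = 0.994), Prr5 (0.989) and Mknk2 (0.972). Gga2 had 57.6 RPKM in ZnF1 fraction B and 21.5 to 27.3 in the other 5 libraries. Most like Tcf3 were Irf3 (0.988), Zbtb49 (0.988) and Mir3057 (0.987), most like Id2 were Selplg (0.995), Ly6c2 (0.994) and Tmem63a (0.994), and most like Id1 were Crispld2 (0.999), Il1r2 (0.996) and Lmo2 (0.996). These values describe 6 libraries, and those of Id2 and Id1 rest on ZnF1 fraction C, where Ly6c2 had 53.6 RPKM against 0.7 to 3.3 in the others.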

How the data were processed

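Total RNA of 6 libraries of sorted mouse proB cells was sequenced after Illumina TruSeq preparation, per the labels' protocols. The authors deposited RPKM values per RefSeq transcript, rounded to 0.1, beside the transcript length, per the file headers. TopHat, bedtools and build mm9 are named per the submitters' processing notes. The reads behind the denominator, the use of strand and the division of reads shared by transcripts are, like the versions, not given in the sources used here. Whole reads could not be recovered from the low values, so depth is unknown and no counting interval is given.

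Of 26532 entries, 1 without a gene name was left out. For each symbol the transcript with the highest mean was used, and the 10943 symbols averaging 1 RPKM or more were kept. Differences are of log2(RPKM + 1), which understates changes of low genes, and 2-fold is counted on that scale. The model was limma 3.58.1 (lmFit, eBayes with trend, R 4.3.3) with genotype and fraction and 2 residual degrees of freedom. Tests were two-sided and adjusted by Benjamini-Hochberg over all genes kept. With 1 library per genotype and fraction, the p-values rest on how far genotype differences varied between the 2 fractions. They measure no spread between replicates. A trial on simulated data used additive effects and 1 noise level for all genes. Here the residual SD of members ran from 0.17 (Tcf12) to 1.04 (Id2), so that trial does not check the fit to these data. Python 3.11.15, pandas 2.3.3 and matplotlib 3.10.9 served for tables and figures.

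The members, lists and tests were chosen with earlier results of these data known. All members are named, and 1 listed target is not reported here by name. From each list the named genes are up to 6 per mutant at least 2-fold higher, or lower, in both fractions alike, with 12 further genes always named. Likeness was searched among genes averaging 5 RPKM or more with a log2 range of 1 or more, naming 3 per member with that range. Alternatives were pseudocounts of 0.25 and 5, no filter, 2 rescalings, summed transcripts, leaving out each library, fits of 4 libraries, and other forms of the ratio.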

Additional observations from a re-analysis of the deposited data

Results flagged for a closer look

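Several differences from wt were unlike in the 2 fractions, and each is given here as the log2(RPKM + 1) difference in fraction C less that in fraction B. With 1 library per genotype and fraction, none of these was tested, and each was singled out only because the C to B step ran opposite ways in the mutant and in wt, or because the mutant stood above wt in one fraction and below it in the other.

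For ZnF1 the values were -2.13 for Id3, 2.86 for Id2, 1.55 for Id1, -1.07 for Tcf3, -0.55 for Tcf4 and -0.17 for Tcf12. The Id3 value comes from a high ZnF1 library in fraction B and the Id2 and Id1 values from a high ZnF1 library in fraction C. For ZnF4 they were 0.84 for Id2, 0.41 for Tcf4, 0.30 for Tcf12 and 0.29 for Id1.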

How the results depend on the processing

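Rescaling libraries on 10 B lineage markers moved the median of all genes by -1.13 to 1.04 (log2) between pairs, and rescaling on all genes by -0.16 to 0.16, so directions of the E protein genes depend on it. On B lineage markers the limma log2 changes became -0.19 (Tcf3) and -0.45 (Tcf12) for ZnF4 against wt, -0.12 (Tcf3) and -0.48 (Tcf12) for ZnF4 against ZnF1, 0.02 (Tcf12) and 0.04 (Tcf4) for ZnF1 against wt, and 0.20 (Tcf12) for C against B. The Tcf3 difference of C against B in ZnF1 became 0.03, and rescaling on all genes turned Tcf4 for ZnF1 against wt to 0.01.

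Leaving out 1 library at a time gave 0 to 2 members called for ZnF1 against wt and 0 to 3 for ZnF4 against ZnF1, counting Id1, which passed the filter only through ZnF1 fraction C. For ZnF1 against wt the limma changes ran over -0.02 to 2.04 (Id3), -0.02 to 2.42 (Id2), 0.23 to 1.64 (Id1), -0.60 to 0.30 (Tcf3), -0.22 to 0.10 (Tcf12) and -0.42 to 0.34 (Tcf4). For ZnF4 against ZnF1 they ran over -2.23 to -0.17 (Id3), -3.00 to -0.56 (Id2), -1.88 to -0.48 (Id1), 0.14 to 1.04 (Tcf3) and -0.50 to 0.26 (Tcf4). For ZnF4 against wt they ran over -0.75 to 0.38 (Id3), -1.50 to 0.35 (Id2), -0.70 to 0.22 (Id1), -0.02 to 0.37 (Tcf12) and -0.50 to 0.18 (Tcf4), and for C against B over -0.88 to 0.18 (Id3), -0.32 to 1.11 (Id2) and -0.04 to 0.74 (Id1). With all 6 libraries kept, every alternative called 0 members in each limma contrast, where at most 292 genes were called. Fits of the 4 libraries compared also called 0 members. There 3494 of 10943 genes were called for ZnF4 against wt, 0 for ZnF1 against wt and 151 for ZnF4 against ZnF1.

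The count of members at least 2-fold apart in ZnF4 against wt, fraction B, was 0 with a pseudocount of 5 or all-gene rescaling and 2 with B lineage rescaling. A pseudocount of 5 gave 1 in fraction C for ZnF1 against wt and for ZnF4 against ZnF1. A pseudocount of 0.25 gave 2 for ZnF4 against ZnF1 in fraction B. B lineage rescaling gave 2 for C against B in ZnF1, counting Id1. That rescaling gave 0 E protein targets higher and 7 lower in ZnF4 and 1 lower in ZnF1. It moved the median of all genes against wt to -0.560 (C) and -0.665 (B) for ZnF4. For ZnF1 that median became 0.432 (C) and -0.382 (B). No share of all genes was counted under it, and several targets are among the markers that set it. The cause was not tested.

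The ratio from geometric means was 0.0758 (ZnF4) against 0.099 (wt) in fraction C, and 0.0664 (ZnF4), 0.137 (ZnF1) and 0.0998 (wt) in fraction B. With transcripts summed it was 0.0872 (ZnF4), 0.313 (ZnF1) and 0.126 (wt) in fraction C, and 0.0652, 0.313 and 0.112 in the same genotypes of fraction B. Without Id2 it was 0.204 in ZnF1 fraction C and 0.104 in wt fraction B, and without Tcf4 0.397 in ZnF1 fraction C, 0.416 in ZnF1 fraction B and 0.143 in wt fraction B. Unknown depth and the rounding to 0.1 RPKM limit what Id1 shows.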
